A study of Mus musculus with 12 samples.

Results

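The collagens, the triple-helical proteins of the extracellular matrix, were followed by cell class, fat depot and group in the stromal vascular fraction (SVF, the cells of fat other than adipocytes) of mouse white adipose tissue. A member was any gene whose symbol is Col, a number, the letter a and a number, with at least 1 UMI (unique molecular identifier, 1 counted RNA molecule) in the 12 count matrices. The rule gave 44 of 31053 genes, of which 11 encode fibrillar chains, 8 encode basement membrane chains (collagens IV, XV and XVIII) and 25 encode other chains. Single-cell RNA-seq libraries had been made from epididymal (eWAT) and inguinal (iWAT) white adipose tissue of male mice, 12 weeks old. WT-Veh libraries came from vehicle-treated lean C57BL/6J mice, ob/ob-Veh libraries from Lepob/Lepob mice, which lack functional leptin and become obese, given vehicle, and ob/ob-Rosi libraries from Lepob/Lepob mice given 30 mg/kg rosiglitazone, an agonist of the nuclear receptor PPARγ, by gavage over 3 days. All groups were gavaged with the methylcellulose carrier or the drug in it, and every depot and label holds 2 libraries labelled as biological replicates. The design holds no lean mice given rosiglitazone, obesity is that of 1 mutant strain, and the tissue was digested with collagenase before the cells were captured.

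Fibrillar collagens (types I, III and V here) assemble into the banded fibres that carry tension, collagen IV forms the sheet-like network of basement membranes, and collagen VI forms beaded filaments that link the network to fibres. In fat, each adipocyte is wrapped in a basement membrane, and the stromal cells from which adipocytes arise are a main source of all these proteins. Each type is a trimer, built from a single gene's chain in collagens III, XII, XIV, XV and XVIII and from the chains of several genes in collagens I, IV and VI, so that collagen IV occurs as α1α1α2, α3α4α5 or α5α5α6 trimers. Collagens XV and XVIII carry sugar chains and sit at the outer face of basement membranes.

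The 6 collagen IV genes lie in the mouse genome as 3 pairs that are transcribed away from each other, and both members of the pairs Col4a3/Col4a4 and Col4a5/Col4a6 are among the members described below whose levels moved apart from the rest of the family. In GRCm38 coordinates, Col4a3 (chr1:82586921-82722059, plus strand) and Col4a4 (chr1:82448423-82586849, minus strand) start 72 bases apart. Col4a5 (chrX:141475385-141689234, plus strand) and Col4a6 (chrX:141165403-141474076, minus strand) start 1309 bases apart. Col4a1 (chr8:11198423-11312826, minus strand) and Col4a2 (chr8:11312805-11449287, plus strand) start 21 bases apart with overlapping first exons. The sequences upstream of the starts of Col4a4, Col4a5 and Col4a6, and of Col8a1 (chr16:57624258-57754737, minus strand), a member with large differences in both stromal classes of eWAT, are shown 5′ to 3′ on the strand of each gene, as RefSeq gives them for GRCm38.p6, with GC boxes (GGGCGG) and CCAAT boxes on either strand in capitals.
Col4a4, chr1:82586850-82586920, the whole interval between the Col4a4 and Col4a3 starts: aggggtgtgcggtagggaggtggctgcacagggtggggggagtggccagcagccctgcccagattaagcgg
Col4a5, chrX:141475169-141475384: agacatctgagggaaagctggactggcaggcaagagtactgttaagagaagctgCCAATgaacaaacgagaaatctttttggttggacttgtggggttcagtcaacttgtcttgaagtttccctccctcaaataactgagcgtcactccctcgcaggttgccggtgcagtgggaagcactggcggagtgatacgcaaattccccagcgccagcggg
Col4a6, chrX:141474077-141474326: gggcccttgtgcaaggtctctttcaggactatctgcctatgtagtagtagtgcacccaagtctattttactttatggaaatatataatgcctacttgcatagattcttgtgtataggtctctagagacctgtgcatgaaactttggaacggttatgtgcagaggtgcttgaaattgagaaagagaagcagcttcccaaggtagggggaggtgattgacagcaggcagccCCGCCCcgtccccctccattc
Col8a1, chr16:57754738-57754987: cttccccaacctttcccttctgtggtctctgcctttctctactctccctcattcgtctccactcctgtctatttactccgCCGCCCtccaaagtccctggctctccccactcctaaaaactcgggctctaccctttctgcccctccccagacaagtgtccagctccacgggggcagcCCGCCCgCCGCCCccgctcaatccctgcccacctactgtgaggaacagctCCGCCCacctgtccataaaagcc
The Col8a1 sequence holds 4 GC boxes, the Col4a6 sequence 1 and the Col4a4 and Col4a5 sequences none, and the Col4a5 sequence holds 1 CCAAT box. None of the 4 holds a TATA box (TATAAA) or the PPAR element, a direct repeat of AGGTCA with any 1 base between the copies. Over the 250 bases upstream of 32851 promoters of the RefSeq table, 32.7% held a GC box, 33.8% a CCAAT box, 12.4% a TATA box and 0.0335% the repeat, against 22, 13, 5 and 0 of the 38 promoters of 35 members that the table holds. All 44 members matched the GRCm38 annotation by identifier.

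Libraries held between 40933057 and 92475986 UMIs in eWAT and between 20132553 and 66818914 in iWAT, and 57613 of 67341 and 68482 of 72414 barcodes passed the filters, with a median of 2046 to 4961 UMIs a cell in eWAT and 1132 to 4671 in iWAT. Any 2 libraries of a depot shared between 20 and 72 barcodes. As a check of the labels, Lep, the leptin gene, gave 20.1 to 42.5 UMIs per 100 UMIs of Adipoq, the adiponectin gene, in libraries labelled WT-Veh, 3.95 to 36.4 in those labelled ob/ob-Veh and 141 to 390 in those labelled ob/ob-Rosi. The ratios rest on 33 to 83, 4 to 43 and 60 to 277 Lep UMIs a library, and iWAT ob/ob-Veh replicate 1 held 11 Adipoq UMIs. Floating adipocytes had been removed, and counts this low cannot decide whether the labels are right. The ob allele is a point mutation that leaves the transcript, whose level is known to be raised in ob/ob fat. In eWAT both libraries labelled ob/ob-Veh (3.95 and 16.2 Lep per 100 Adipoq UMIs) lay below both labelled WT-Veh (28.0 and 42.5), with ob/ob-Rosi at 240 and 390. In iWAT ob/ob-Veh (36.4 and 15.1) overlapped WT-Veh (20.1 and 31.6), with ob/ob-Rosi at 164 and 141. The libraries labelled ob/ob-Veh thus did not stand above those labelled WT-Veh, so groups are named here by their labels only. In eWAT the progenitor-like and preadipocyte-like cells of ob/ob-Rosi shared their clusters with WT-Veh, and nearly all of those of ob/ob-Veh lay in other clusters. Whether labels were exchanged was not tested. The directions given below for ob/ob-Veh are those of the labels as given. Progenitor-like cells made up 2.48% and 4.25% of the eWAT cells labelled WT-Veh, 7.77% and 15.6% of those labelled ob/ob-Veh and 1.87% and 3.98% of those labelled ob/ob-Rosi. In iWAT they made up 0.873% and 20.1% of WT-Veh, 44.9% and 47.9% of ob/ob-Veh and 9.80% and 19.3% of ob/ob-Rosi cells. In iWAT, 12651 cells of the library labelled WT-Veh replicate 1 fell in clusters that markers did not name and only 149 were progenitor-like and 237 preadipocyte-like, so results that rest on it are given without it as well. Within the stromal-like cells, different clusters made up a class in different groups: 2 clusters held 99.8% of the eWAT preadipocyte-like cells labelled WT-Veh and 99.6% of those labelled ob/ob-Rosi, and another 2 held 33.9% and 65.9% of those labelled ob/ob-Veh. The class of the first of these, led by Rnd1, Il6 and Adamts4, is uncertain: its preadipocyte and progenitor markers had mean levels of 6.67 and 6.61 (log2 of CPM + 1). In iWAT a preadipocyte-like and a progenitor-like cluster were as close (7.08 against 6.99 and 7.39 against 7.55), and results are also given without the 3 clusters, a setting chosen after seeing the data. One eWAT preadipocyte-like cluster had Malat1 and the mitochondrial genes mt-Atp8, mt-Nd4l and mt-Nd6 among its leading genes. It held 81.6% of the WT-Veh, 52.5% of the ob/ob-Rosi and 0.140% of the ob/ob-Veh cells of the class, and the part of RNA quality was not tested. The eWAT cluster with 65.9% of the ob/ob-Veh preadipocyte-like cells had the haemoglobin genes Hbb-bs and Hba-a1 among its leading genes. Among eWAT stromal clusters of at least 100 cells, Col4a3, Col4a4, Col4a5 and Col4a6 were highest in it, and the part of haemoglobin RNA was not tested.

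Collagen RNA was concentrated in stromal-like cells and in a few chains. The 12 libraries held 5.1142e+06 collagen UMIs, of which the 3 most counted members (Col3a1, 1510373 UMIs, Col1a2, 1021976, and Col1a1, 627664) gave 61.8%. Fibrillar chains gave 68.8%, basement membrane chains 15.3% and other chains 15.9%, and stromal-like cells (adipose progenitor cells, named by Pdgfra, Dcn and similar markers and no collagen) held 89.6% of the collagen UMIs of kept cells in eWAT and 90.0% in iWAT. Next came Col4a1 (426423), Col6a1 (266627), Col4a2 (221390), Col6a2 (181521), Col6a3 (177723), Col5a2 (132131), Col5a1 (115846) and Col5a3 (106054). Of the 44 members, 32 were counted often enough to be tested in at least 1 comparison within a class. The other 12 were not, of which Col17a1 and Col11a2 entered fits of pooled stromal-like cells and were not called: Col19a1 (6 UMIs), Col9a1 (10), Col2a1 (11), Col9a2 (12), Col25a1 (13), Col24a1 (30), Col10a1 (38), Col11a1 (41), Col22a1 (58), Col9a3 (131), Col17a1 (256) and Col11a2 (405), which include the chains known from cartilage, II, IX, X and XI.

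Levels are given as CPM, the UMIs of a gene per 1000000 UMIs of a class in a library. A 3′ UMI counts a molecule once whatever its length, so CPM compares numbers of molecules between genes and is not divided by length. Col3a1, which forms fibres with collagen I in soft tissue, had the highest median level over libraries in preadipocyte-like cells (10788 CPM in eWAT, 15659 in iWAT), lower levels in progenitor-like cells (5571 and 3963) and mesothelial-like cells (2824, eWAT), and 208 and 355 in endothelial-like cells. T/NK-like and BC-like cells, pooled as cells that should not make collagen, still gave 562 and 974 CPM of Col3a1, so a level at or below that of lymphoid cells is read here as background. The lymphoid cells held fewer UMIs than endothelial-like cells (a median of 853.5 to 2391 in T/NK-like and 1697 to 4057 in endothelial-like cells over libraries), and likely doublets were part of them: without these the collagen share of T/NK-like cells went from 0.29% to 0.14% in iWAT ob/ob-Rosi replicate 2. Col1a1 and Col1a2, the chains of collagen I, followed the same order. In eWAT they stood at 3811 and 5120 CPM in preadipocyte-like cells and at 1807 and 3684 in progenitor-like cells, and in iWAT at 5767 and 8116 and at 3085 and 5120.

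The basement membrane chains had another distribution. Col4a1 was at 4307 CPM in eWAT preadipocyte-like cells, 1617 in mural-like, 1189 in progenitor-like, 905 in endothelial-like and 581 in lymphatic endothelial-like cells, and in iWAT at 3786, 1509, 273 and 1150 in the first 4 of these. Col4a2, its partner in the trimer, was at 2208, 953, 616 and 649 CPM in eWAT and 1783, 946, 117 and 682 in iWAT in the same classes. Col4a1 and Col4a2 therefore lay above the lymphoid background in the vessel wall classes. In mural-like cells fibrillar chains did so too in some libraries, with 0.175% of UMIs against 0.0933% in T/NK-like cells in eWAT ob/ob-Veh replicate 1. Col18a1, the source of endostatin, had its highest medians in lymphatic endothelial-like (349 CPM) and mesothelial-like cells (306), with 241 and 198 in preadipocyte-like cells of eWAT and iWAT. The lymphatic medians of Col18a1 and Col4a1 cover only the ob/ob-Veh libraries (35 and 64 cells) and WT-Veh replicate 1 (30 cells). They therefore do not rank that class against the others. Col15a1 was higher in preadipocyte-like (749 and 631) than in progenitor-like cells (250 and 41.4).

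Less abundant chains differed in the class where they were highest. Col14a1, a collagen that lies on fibril surfaces, was at 874 and 871 CPM in progenitor-like against 221 and 230 in preadipocyte-like cells of eWAT and iWAT, the reverse of the collagens above. Col12a1, of the same fibril-associated group, was at 41.4 and 232 CPM in progenitor-like cells. Col4a6 and Col4a5 reached 70.2 and 152 CPM in mesothelial-like cells, the sheet that covers eWAT. Col28a1, which is related to collagen VI, was at 38.0 CPM in eWAT endothelial-like and 28.3 in iWAT mural-like cells. The latter median covers WT-Veh and ob/ob-Rosi libraries only, so it does not rank iWAT mural-like cells above other classes. Because classes come from clustering the same cells, differences between classes are described without a test, and collagens were left out of the genes used for clustering.

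**Figure D1:**
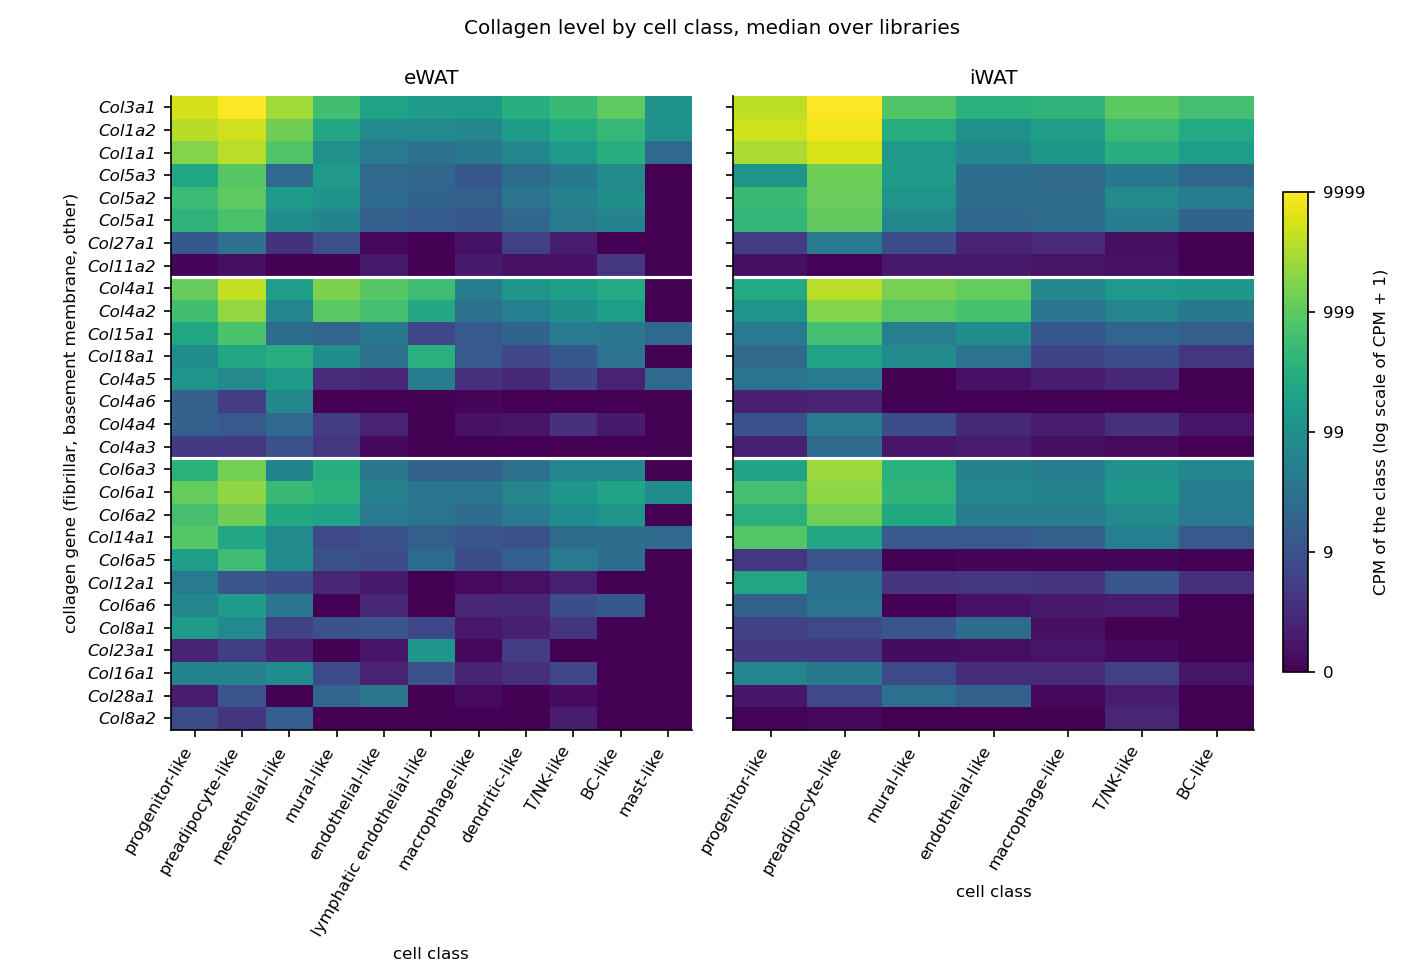
Heat map of the median level over libraries (CPM, colour on a log scale of CPM + 1 that stops at the top of the colour bar, so that Col3a1 in preadipocyte-like cells is at its end) of collagens that reached 10 CPM in some class, in rows grouped as fibrillar, basement membrane and other, against the cell classes of eWAT and iWAT in columns. Fibrillar rows are brightest in the preadipocyte-like and progenitor-like columns (Col3a1 at 10788 and 5571 CPM in eWAT), whereas Col4a1 and Col4a2 are also bright in the mural-like and endothelial-like columns.

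Within the stromal-like cells the chains varied unequally between the 9 eWAT clusters and the 12 iWAT clusters of at least 100 cells (a cluster of 34 eWAT cells led by cell cycle genes was left out). In eWAT, the level summed over libraries ran from 3.53 to 243 CPM for Col8a1, a short-chain collagen of vessel walls and mesenchyme, from 2.9 to 83.2 for Col4a4 and from 1.26 to 47.4 for Col4a6. In iWAT it ran from 13.4 to 406 CPM for Col12a1 and from 6.8 to 749 for Col15a1. The clusters with the extreme values were in part those that held a single group, so this spread is not separate from the differences between groups.

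Summed over the family, collagens took a smaller share of stromal RNA in the eWAT libraries labelled ob/ob-Veh than in the others, and a larger share in iWAT progenitor-like cells. In eWAT preadipocyte-like cells the share of UMIs was 3.97% and 3.80% in WT-Veh, 2.00% and 2.29% in ob/ob-Veh and 4.06% and 3.97% in ob/ob-Rosi. In eWAT progenitor-like cells it was 2.01% and 1.85% for WT-Veh, 1.26% and 1.44% for ob/ob-Veh, and 2.31% and 1.83% for ob/ob-Rosi. The ob/ob-Veh values lay below all others in both classes. In iWAT progenitor-like cells the order turned, with 1.63% and 1.19% in WT-Veh, 2.79% and 2.59% in ob/ob-Veh and 1.71% and 1.29% in ob/ob-Rosi. This turn holds for the class as drawn. The iWAT ob/ob-Veh libraries held 3238 and 3449 progenitor-like but 66 and 199 preadipocyte-like cells. With all stromal-like cells of iWAT pooled, the groups overlapped for Col3a1 (9833 and 4172 CPM in WT-Veh, 7526 and 8080 in ob/ob-Veh, 17615 and 7838 in ob/ob-Rosi). They also overlapped for Col1a1. For Col1a2 both ob/ob-Veh libraries (9358 and 7335 CPM) lay above both WT-Veh libraries (6332 and 5148), and ob/ob-Rosi (7437 and 5457) overlapped each. That difference of Col1a2 between ob/ob-Veh and WT-Veh was not called by edgeR (0.49 ± 0.37, adjusted p = 0.532). In iWAT preadipocyte-like cells the shares were 4.24% and 2.97%, 5.81% and 5.40%, and 6.12% and 4.20%, so that WT-Veh lay below ob/ob-Veh while ob/ob-Rosi overlapped both. Basement membrane chains took 0.911% and 0.805% of UMIs in eWAT preadipocyte-like cells labelled WT-Veh, 0.366% and 0.467% in ob/ob-Veh and 0.781% and 0.805% in ob/ob-Rosi, and the fibrillar chains 2.44% and 2.36%, 1.27% and 1.38%, and 2.59% and 2.43%.

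**Figure D2:**
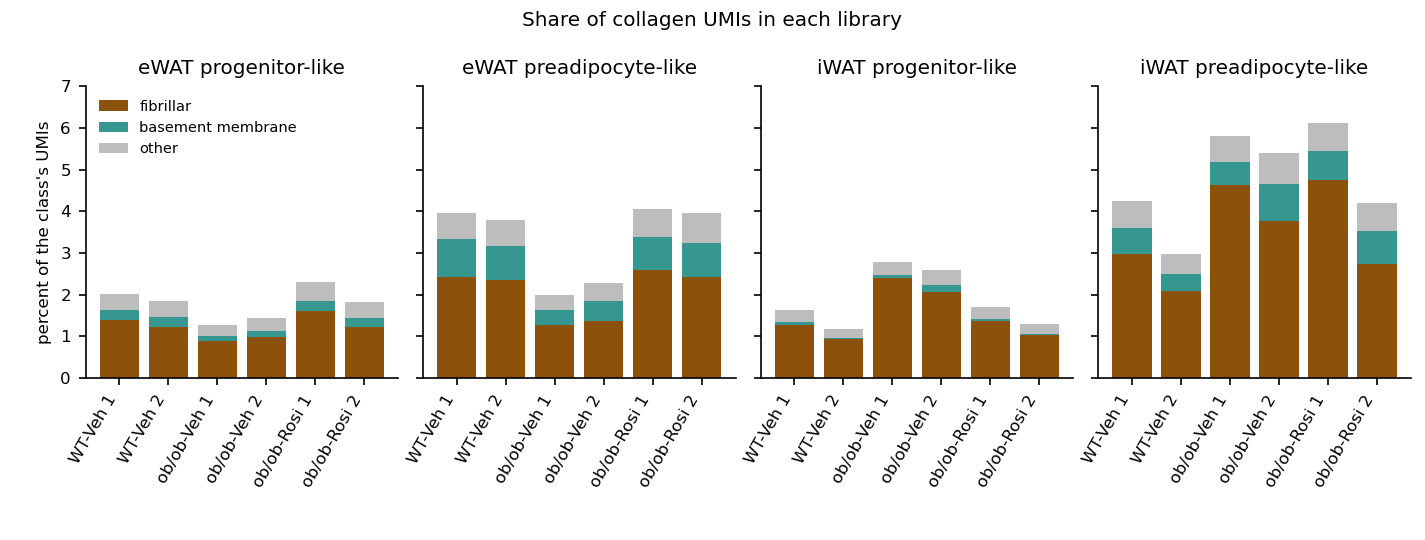
Stacked bars of the percent of a class's UMIs taken by fibrillar, basement membrane and other collagens in each library of eWAT and iWAT, from 0. In eWAT preadipocyte-like cells the bars labelled ob/ob-Veh reach 2.00% and 2.29%, and all others 3.80% to 4.06%.

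Single collagens were compared between labels in each depot and class with edgeR's quasi-likelihood test on UMIs summed per library, 2 libraries against 2, and a change counted as called when its p, adjusted over all genes tested by the Benjamini-Hochberg method, was 0.05 or less and the fold was at least 1.1. Errors of log2 fold changes are standard errors (SE). The ob/ob-Veh libraries enter both the comparison with WT-Veh and that with ob/ob-Rosi, so the opposite sign of the 2 comparisons is in part fixed by the shared libraries and is not a second observation. Fewer cells of a kind within a class and less RNA per cell cannot be told apart in these sums. CPM is a share of the UMIs of a class, and UMIs per cell differed between groups. In eWAT progenitor-like cells the library medians were 1534 and 4040 in WT-Veh, 7979 and 5857 in ob/ob-Veh and 2414.5 and 3298.5 in ob/ob-Rosi. In eWAT preadipocyte-like cells they were 1120 and 2828, 5756 and 4545.5, and 1972.5 and 4760. Whether collagen molecules per cell differed was not tested.

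In eWAT preadipocyte-like cells, Col1a1, the basement membrane chains Col4a1, Col4a2 and Col18a1, and Col6a3, Col8a1 and Col28a1 were lower, and Col4a3, Col4a4 and Col4a6, chains of the minor collagen IV trimers, higher, in libraries labelled ob/ob-Veh. Of 31 members tested against WT-Veh, 3 rose and 7 fell, beside 6.82% of all 12596 genes called (2.97% higher and 3.85% lower), and the median log2 fold change was -0.78 over the members and 0.00 over all genes. Against ob/ob-Veh, 8 rose and 4 fell in ob/ob-Rosi, beside 7.15% of all genes (3.95% higher and 3.19% lower), with medians of 0.87 and 0.01. Macrophage markers summed to 127 to 174 CPM in these cells of ob/ob-Veh libraries and to 776 to 1319 in the others, and mesothelial markers to 184 to 186 against 34.6 to 49.2. The part of either in the differences below was not tested.

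Among the basement membrane chains, Col4a1 and Col4a2 were lower in ob/ob-Veh. Col4a2 was counted at 2748 and 2605 CPM in WT-Veh, 700 and 943 in ob/ob-Veh and 2083 and 2334 in ob/ob-Rosi. It fell by 1.75 ± 0.29 (log2, adjusted p = 0.00524) against WT-Veh and rose by 1.48 ± 0.29 (adjusted p = 0.0114) in ob/ob-Rosi against ob/ob-Veh. Both ob/ob-Veh values lay under the other 4. Col4a1 was at 5277 and 4430, 1944 and 2421, and 4374 and 4241 CPM in these groups. It fell by 1.21 ± 0.29 (adjusted p = 0.0321), and its difference of 1.03 ± 0.29 in ob/ob-Rosi missed the threshold (adjusted p = 0.0592). Col18a1 followed them, with 229 and 310, 99.9 and 122, and 252 and 324 CPM, a fall of 1.31 ± 0.29 (adjusted p = 0.021) and a rise of 1.43 ± 0.29 (adjusted p = 0.0137). Col15a1, its close relative, did not pass either test, with log2 fold changes of -0.21 ± 0.29 and 0.79 ± 0.29.

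The α3 to α6 chains of collagen IV, known from the basement membranes of kidney, lung and smooth muscle, went the other way. Col4a4, whose start lies 72 bases from that of Col4a3, was at 10.3 and 4.96 CPM in WT-Veh, 65.2 and 77.0 in ob/ob-Veh and 15.2 and 2.85 in ob/ob-Rosi. It rose by 3.19 ± 0.63 (adjusted p = 0.0126) and fell by 3.05 ± 0.61 (adjusted p = 0.0137) in the 2 comparisons. Col4a3 was at 2.18 and 1.18, 13.6 and 17.7, and 4.81 and 0.986 CPM, and changed by 3.21 ± 0.66 (adjusted p = 0.0154) and -2.59 ± 0.59 (adjusted p = 0.0245). For both genes the ob/ob-Veh libraries stood above all others. Col4a6 was at 3.43 and 4.02, 36.3 and 55.8, and 4.55 and 0.548 CPM, and changed by 3.57 ± 0.61 (adjusted p = 0.00623) and -4.42 ± 0.64 (adjusted p = 0.00254). Col4a5, the most abundant of the 4, was at 67.4 and 49.6, 251 and 309, and 82.4 and 14.8 CPM. It fell by 2.50 ± 0.61 in ob/ob-Rosi against ob/ob-Veh (adjusted p = 0.0329), while its difference of 2.21 ± 0.61 in ob/ob-Veh missed the threshold (adjusted p = 0.0557). These 4 chains remained below Col4a1 and Col4a2 in molecules in every library, with Col4a5 nearest to Col4a2 in ob/ob-Veh (251 against 700 CPM and 309 against 943), and Col4a6 and Col4a5 were also the chains found in mesothelial-like cells, at 70.2 and 152 CPM.

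Of the fibrillar chains, Col1a1 changed in both comparisons. It was counted at 4661 and 4897 CPM in WT-Veh, 1686 and 1904 in ob/ob-Veh and 3740 and 3883 in ob/ob-Rosi, fell by 1.45 ± 0.28 (adjusted p = 0.0106) and rose by 1.13 ± 0.27 (adjusted p = 0.0312). Its partner Col1a2 moved less, with 5391 and 5620, 3769 and 4090, and 4849 and 5467 CPM and log2 fold changes of -0.52 ± 0.27 and 0.44 ± 0.27 (adjusted p = 0.336 and 0.427). Every ob/ob-Veh library was again the lower for both genes. Col3a1 was at 11248 and 10328, 5470 and 5813, and 13781 and 12320 CPM, and rose by 1.25 ± 0.28 in ob/ob-Rosi (adjusted p = 0.023) after a difference of -0.98 ± 0.28 in ob/ob-Veh (adjusted p = 0.0682). The chains of collagen V, which starts fibrils, did not pass: Col5a1 differed by -0.47 ± 0.29, Col5a2 by -0.80 ± 0.29 and Col5a3 by -0.78 ± 0.31 in ob/ob-Veh against WT-Veh.

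Among the other collagens, Col8a1 had the largest difference of the well counted members. It was at 152 and 86.9 CPM in WT-Veh, 5.13 and 12.9 in ob/ob-Veh and 73.3 and 170 in ob/ob-Rosi, fell by 3.82 ± 0.54 (adjusted p = 0.00228) and rose by 3.84 ± 0.54 (adjusted p = 0.00232). Col28a1 moved with it at a lower level (24.3 and 7.56, 1.30 and 2.68, and 15 and 13.4 CPM), by -3.07 ± 0.57 (adjusted p = 0.00947) and 2.89 ± 0.56 (adjusted p = 0.0114). For both the ob/ob-Veh values lay under all others. Of the collagen VI chains, Col6a3 (1412 and 1496, 664 and 677, and 1909 and 1540 CPM) fell by 1.15 ± 0.28 (adjusted p = 0.0357) and rose by 1.40 ± 0.28 (adjusted p = 0.0144), and Col6a1 (2063 and 2606, 1032 and 1266, and 2325 and 3037 CPM) rose by 1.27 ± 0.29 in ob/ob-Rosi (adjusted p = 0.0237) after -1.06 ± 0.29 in ob/ob-Veh (adjusted p = 0.0543). Col6a2 missed both tests (-0.81 ± 0.31 and 1.13 ± 0.31). The longer chains Col6a5 and Col6a6 had positive differences in ob/ob-Veh that did not pass, 0.85 ± 0.48 and 1.33 ± 0.40, as did the negative ones of Col12a1 (-1.03 ± 0.34), Col14a1 (-0.62 ± 0.42) and Col16a1 (-0.64 ± 0.26).

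These calls leaned on single libraries to different degrees. Some counts of calls, here and below, stand without the share of all genes called in the same fit. They are those without a library or likely doublets, after another clustering, and by DESeq2. A change in such a count can therefore be one over all genes. Col8a1 and Col4a6 in both comparisons and Col4a4 in ob/ob-Rosi against ob/ob-Veh were called in every leave-one-out fit and under every other setting tried. For ob/ob-Veh against WT-Veh, with 10 calls from all libraries, the fits without ob/ob-Veh replicate 1 or 2 or WT-Veh replicate 1 or 2 each made 4 calls, and those without ob/ob-Rosi replicate 1 or 2 made 18 and 17. The calls of Col1a1, Col4a1, Col18a1 and Col6a3 were lost in each of the first 4 fits. For ob/ob-Rosi against ob/ob-Veh, with 12 calls, there were 3 without ob/ob-Veh replicate 1 and 4 without ob/ob-Veh replicate 2. Without the cluster of 1692 ob/ob-Veh cells whose class is uncertain there were 11 calls (5.8% of all genes) and 13 (6.04%), with Col6a3 lost (adjusted p = 0.0563) and Col3a1 and Col12a1 gained in the first and Col6a2 gained in the second.

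**Figure D3:**
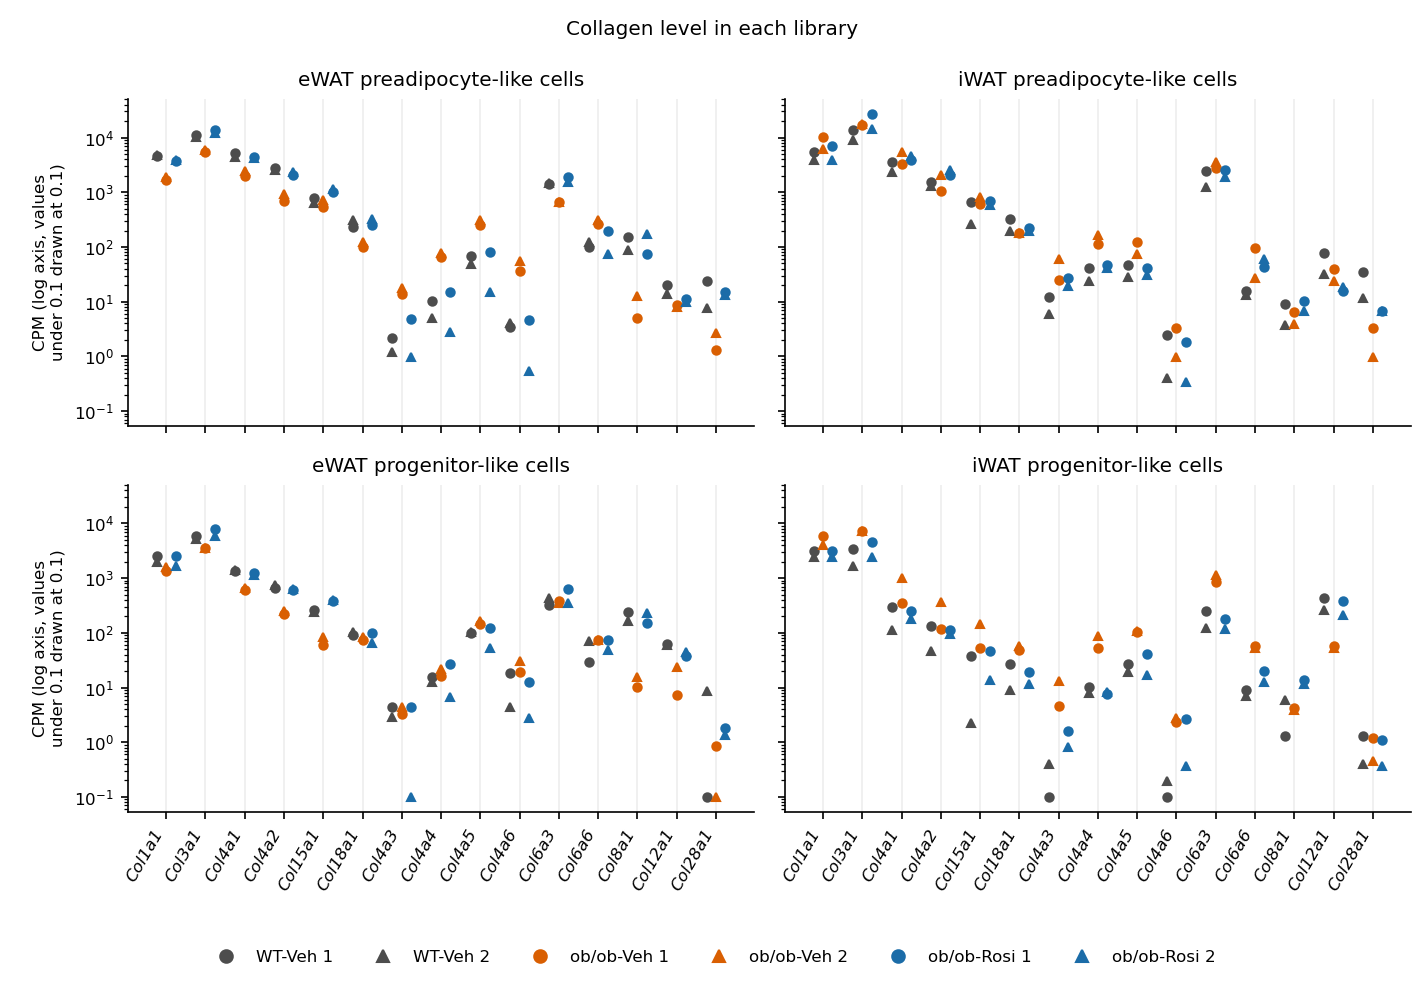
Level in each library (CPM, log axis, values under 0.1 drawn at 0.1) of 15 collagens in eWAT and iWAT preadipocyte-like and progenitor-like cells, with points coloured by label. In eWAT preadipocyte-like cells the Col8a1 points labelled ob/ob-Veh lie at 5.13 and 12.9 CPM and those labelled WT-Veh and ob/ob-Rosi at 73.3 to 170, whereas the Col4a4 points labelled ob/ob-Veh lie highest, at 65.2 and 77.0 CPM.

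In eWAT progenitor-like cells, named from a list that holds Pi16 and Dpp4, markers of stem-like cells, 5 of 24 members fell and 0 rose in ob/ob-Veh against WT-Veh (5.85% of all genes called, 3.78% lower), and 5 rose and 0 fell in ob/ob-Rosi against ob/ob-Veh (5.33%, 3.38% higher). The medians over members were -0.30 and 0.44. One cluster held 97.5% of the cells labelled ob/ob-Veh and 2.8% and 3.9% of those labelled WT-Veh and ob/ob-Rosi. Another, led by Myoc, Mfap4 and Cpxm2, held 48.1% of the WT-Veh, 48.9% of the ob/ob-Rosi and 2.31% of the ob/ob-Veh cells. Macrophage markers summed to 117 to 179 CPM in ob/ob-Veh and 724 to 984 in the others.

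Col8a1 was counted there at 244 and 164 CPM in WT-Veh, 10.4 and 15.4 in ob/ob-Veh and 154 and 231 in ob/ob-Rosi. It fell by 4.01 ± 0.36 (adjusted p = 1.34e-05) and rose by 3.93 ± 0.36 (adjusted p = 1.8e-05), and it was called in every leave-one-out fit and setting. Col15a1, which was not called in preadipocyte-like cells, was at 261 and 238, 60.8 and 83.2, and 389 and 405 CPM, and changed by -1.81 ± 0.28 (adjusted p = 0.00104) and 2.49 ± 0.29 (adjusted p = 0.000107). All ob/ob-Veh values of both genes lay under the others. Col12a1 was at 62.0 and 60.3, 7.45 and 24.1, and 37.7 and 45.0 CPM, and changed by -2.07 ± 0.39 (adjusted p = 0.00457) and 1.51 ± 0.41 (adjusted p = 0.045). Col4a2 (651 and 762, 218 and 251, and 602 and 629 CPM) changed by -1.60 ± 0.27 (adjusted p = 0.00187) and 1.41 ± 0.27 (adjusted p = 0.00465), and Col4a1 (1346 and 1391, 609 and 671, and 1261 and 1118 CPM) fell by 1.1 ± 0.26 (adjusted p = 0.0177). Col3a1, the remaining call, rose by 0.97 ± 0.25 in ob/ob-Rosi (adjusted p = 0.0372).

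The α3 to α6 chains did not pass in these cells: Col4a6 differed by 1.32 ± 0.55 in ob/ob-Veh, Col4a5 by 0.58 ± 0.34 and Col4a4 by 0.43 ± 0.45. Col1a1 (-0.66 ± 0.28), Col1a2 (-0.31 ± 0.24), Col5a1 (0.37 ± 0.27), Col5a2 (-0.39 ± 0.28), Col5a3 (0.22 ± 0.31), Col6a1 (-0.53 ± 0.26), Col6a2 (-0.19 ± 0.27), Col6a3 (-0.05 ± 0.32), Col14a1 (-0.26 ± 0.30), Col16a1 (-0.55 ± 0.27) and Col18a1 (-0.30 ± 0.29) missed the threshold too. The calls of Col15a1, Col4a1 and Col4a2 rest on which cells are called progenitor-like. With collagens kept among the clustering genes, or at the coarser Leiden resolution of 0.5, all 3 were lost, and the difference in ob/ob-Veh became 0.20 and 0.61 for Col15a1 and 0.036 and 0.17 for Col4a1. Without ob/ob-Veh replicate 1, WT-Veh replicate 1 or WT-Veh replicate 2, 3 of the 5 falls were called, and 2, 3 and 3 of the 5 rises.

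With all stromal-like cells of eWAT pooled, so that no line between progenitor-like and preadipocyte-like cells is needed, 11 of 32 members fell and 4 rose in ob/ob-Veh against WT-Veh (8.87% of all genes called), and 14 rose and 4 fell in ob/ob-Rosi against ob/ob-Veh (9.16%). Col8a1 (-3.69 ± 0.41, adjusted p = 0.0008), Col28a1 (-2.93), Col4a2 (-1.78), Col1a1 (-1.39), Col4a1 (-1.26), Col12a1 (-1.09) and Col3a1 (-0.98) were among those that fell. Those that rose were Col4a6 (3.27, adjusted p = 0.0151), Col4a4 (2.95, adjusted p = 0.0118), Col4a3 (2.80) and Col6a6 (1.30). The pool also holds the clusters left unnamed, and the groups differ in them: the cluster led by Tagln and Acta2 had 16 cells from ob/ob-Veh, 1291 from WT-Veh and 964 from ob/ob-Rosi, and one led by macrophage genes (C1qa, Mrc1, Cd163) had 282, 470 and 369.

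No collagen passed the edgeR test between ob/ob-Rosi and WT-Veh in the progenitor-like or preadipocyte-like cells of either depot. In eWAT, the edgeR test called 0 of 31 members in preadipocyte-like and 0 of 24 in progenitor-like cells (0% of all genes in each), 0 and 2 had an unadjusted p under 0.05, and DESeq2 called 0 in each. In iWAT it called 0 of 27 in progenitor-like cells (0%, 3 at an unadjusted p under 0.05) and 0 of 25 in preadipocyte-like cells (0.0705%, 4), again with 0 calls by DESeq2. Without WT-Veh replicate 2, 2 members were called in iWAT preadipocyte-like cells. The medians over members were 0.02, -0.09, 0.18 and 0.30. Under other settings edgeR did make calls in iWAT, counted in the closing section. Without the filter on low counts they fell in progenitor-like and preadipocyte-like cells. With same-numbered libraries taken as a block they fell in preadipocyte-like cells. A missed threshold leaves room for differences: the 95% interval for eWAT preadipocyte-like cells ran from -1.05 to 1.08 for Col8a1, from -0.92 to 0.28 for Col1a1 and from -0.90 to 0.35 for Col4a2.

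In iWAT progenitor-like cells, the members' differences in ob/ob-Veh against WT-Veh were mostly positive, with a median of 1.39 over 27 members and 0.01 over all genes. The test called 3 higher and 1 lower (1.09% of all genes called, 0.56% higher and 0.529% lower). In ob/ob-Rosi against ob/ob-Veh it called 1 higher and 4 lower (2.47%, 1.37% higher and 1.1% lower), with a median of -0.90. Macrophage markers summed to 246 to 715 CPM in WT-Veh, 596 to 703 in ob/ob-Veh and 421 to 423 in ob/ob-Rosi, so that both ob/ob-Veh libraries lay above both ob/ob-Rosi libraries and WT-Veh overlapped with each, and their part in the differences was not tested. The groups lay in different clusters: those that held 54.2%, 27.1% and 16.1% of the ob/ob-Veh cells were not those that held 60.5% and 30.5% of the WT-Veh cells. The 10 leading genes of the cluster with 54.2% of the ob/ob-Veh cells, and of another with 2.17%, held the macrophage genes Mrc1 and F13a1 and no progenitor marker, although all 8 progenitor markers were found in at least 20% of the cells of both. In these clusters macrophage markers summed to 686 to 1205 and to 4141 to 4416 CPM in the ob/ob-Veh libraries. Without both clusters, a setting chosen after seeing the data that left 1390 and 1530 ob/ob-Veh cells, 4 members rose and 1 fell in ob/ob-Veh against WT-Veh (1.05% of all genes called), and 2 rose and 5 fell in ob/ob-Rosi against ob/ob-Veh (2.11%). Those calls hold each of the ones described next, with Col4a5 added in both comparisons and Col8a1 in the second.

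Col12a1, a bridge between fibrils, was the gene that fell, as it had in eWAT progenitor-like cells. It was counted at 427 and 256 CPM in WT-Veh, 57.2 and 52.8 in ob/ob-Veh and 378 and 207 in ob/ob-Rosi, and changed by -2.71 ± 0.36 (adjusted p = 0.0158) and 2.56 ± 0.36 (adjusted p = 0.0123). Col4a4 rose, from 10.2 and 7.96 to 53.5 and 86.0 CPM (2.87 ± 0.33, adjusted p = 0.0106), and was at 7.56 and 8.33 in ob/ob-Rosi (-2.94 ± 0.30, adjusted p = 0.00467). In both genes the ob/ob-Veh libraries did not overlap the others. Col6a3 rose from 251 and 120 to 852 and 1160 CPM (2.37 ± 0.38, adjusted p = 0.0328) and was at 177 and 119 in ob/ob-Rosi (-2.60 ± 0.38, adjusted p = 0.0141), the opposite sign to eWAT preadipocyte-like cells. Col6a6 rose from 8.93 and 7.08 to 57.2 and 53.4 CPM (2.73 ± 0.34, adjusted p = 0.0121) and was at 20.4 and 12.6 in ob/ob-Rosi (-1.60 ± 0.29, adjusted p = 0.0283). Col27a1, a minor fibrillar chain, fell by 2.57 ± 0.38 in ob/ob-Rosi against ob/ob-Veh (adjusted p = 0.0147).

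The abundant chains were not called in these cells. Col3a1 was at 3424 and 1695 CPM in WT-Veh, 7204 and 7225 in ob/ob-Veh and 4502 and 2435 in ob/ob-Rosi (1.42 ± 0.44, adjusted p = 0.184), and Col1a1 at 3081 and 2473, 5789 and 4093, and 3089 and 2451 (0.74 ± 0.36, adjusted p = 0.333). Col1a2 differed by 0.61 ± 0.36, Col5a1 by 1.22 ± 0.35, Col5a2 by 0.75 ± 0.35, Col5a3 by 2.63 ± 0.68, Col4a1 by 1.66 ± 0.54, Col4a2 by 1.39 ± 0.54, Col15a1 by 2.97 ± 1.11, Col18a1 by 1.76 ± 0.45, Col6a1 by 0.45 ± 0.27, Col6a2 by 0.74 ± 0.26, Col14a1 by -0.64 ± 0.32 and Col16a1 by 0.19 ± 0.27. Col8a1 stood out in eWAT but was at 1.28 and 5.80, 4.25 and 3.81, and 13.7 and 11.4 CPM here (-0.40 ± 0.47). Without WT-Veh replicate 1, the library that stands apart, 13 members rose and 1 fell in ob/ob-Veh. Without ob/ob-Veh replicate 1 or ob/ob-Veh replicate 2 there were 0 calls in either comparison, and without ob/ob-Rosi replicate 2 there were 2 in ob/ob-Rosi against ob/ob-Veh. That comparison had 13 and 12 calls without WT-Veh replicate 1 or 2. Col4a4 and Col6a3 were also lost when collagens were kept for clustering or the resolution was 0.5, and with all stromal-like cells of iWAT together only Col6a6 (2.30 ± 0.27, adjusted p = 0.0211) and Col12a1 (-1.95 ± 0.27, adjusted p = 0.0418) of 29 members were called (0.339% of all genes), and 0 in ob/ob-Rosi against ob/ob-Veh (0.597%).

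In iWAT preadipocyte-like cells, edgeR called 0 of 25 members in ob/ob-Veh against WT-Veh (0.168% of all genes, 7 members at an unadjusted p under 0.05, 3 called by DESeq2) and 0 in ob/ob-Rosi against ob/ob-Veh (0.00882% of all genes, 2 members at an unadjusted p under 0.05, 1 called by DESeq2). The medians over members were 0.64 and -0.22. Col4a4 came nearest, with 41.4 and 24.0 CPM in WT-Veh, 114 and 163 in ob/ob-Veh and 47.2 and 41.9 in ob/ob-Rosi (2.21 ± 0.35, adjusted p = 0.0586), and was the 1 member called without the cluster of uncertain class (0.232% of all genes). Col3a1 was at 13921 and 9171, 17164 and 17449, and 27092 and 14155 CPM, Col1a1 at 5466 and 3896, 10161 and 6068, and 7121 and 3861, and Col4a1 at 3611 and 2347, 3290 and 5508, and 3962 and 4508. For Col4a1, ob/ob-Veh overlapped each of the other groups, and both ob/ob-Rosi libraries lay above both WT-Veh libraries. The ob/ob-Rosi libraries lay on either side of ob/ob-Veh for Col3a1, and they lay on either side of WT-Veh for Col1a1. The ob/ob-Veh libraries held 66 and 199 of these cells, with 604942 and 1024452 UMIs in all. The groups differed in clusters here too. One led by Nnat, Car3 and Arxes2 held 25.5% of the WT-Veh, 0.377% of the ob/ob-Veh and 0.398% of the ob/ob-Rosi cells. Another, led by Saa3, Ndufa4l2 and Cxcl14, held 30.0%, 75.8% and 57.8%. Without WT-Veh replicate 1, 4 members were called higher in ob/ob-Veh, without WT-Veh replicate 2, 1 higher and 1 lower, and without ob/ob-Rosi replicate 1 or 2, 2 and 1 higher. Without WT-Veh replicate 1 or 2, 2 were called lower in ob/ob-Rosi against ob/ob-Veh.

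**Figure D4:**
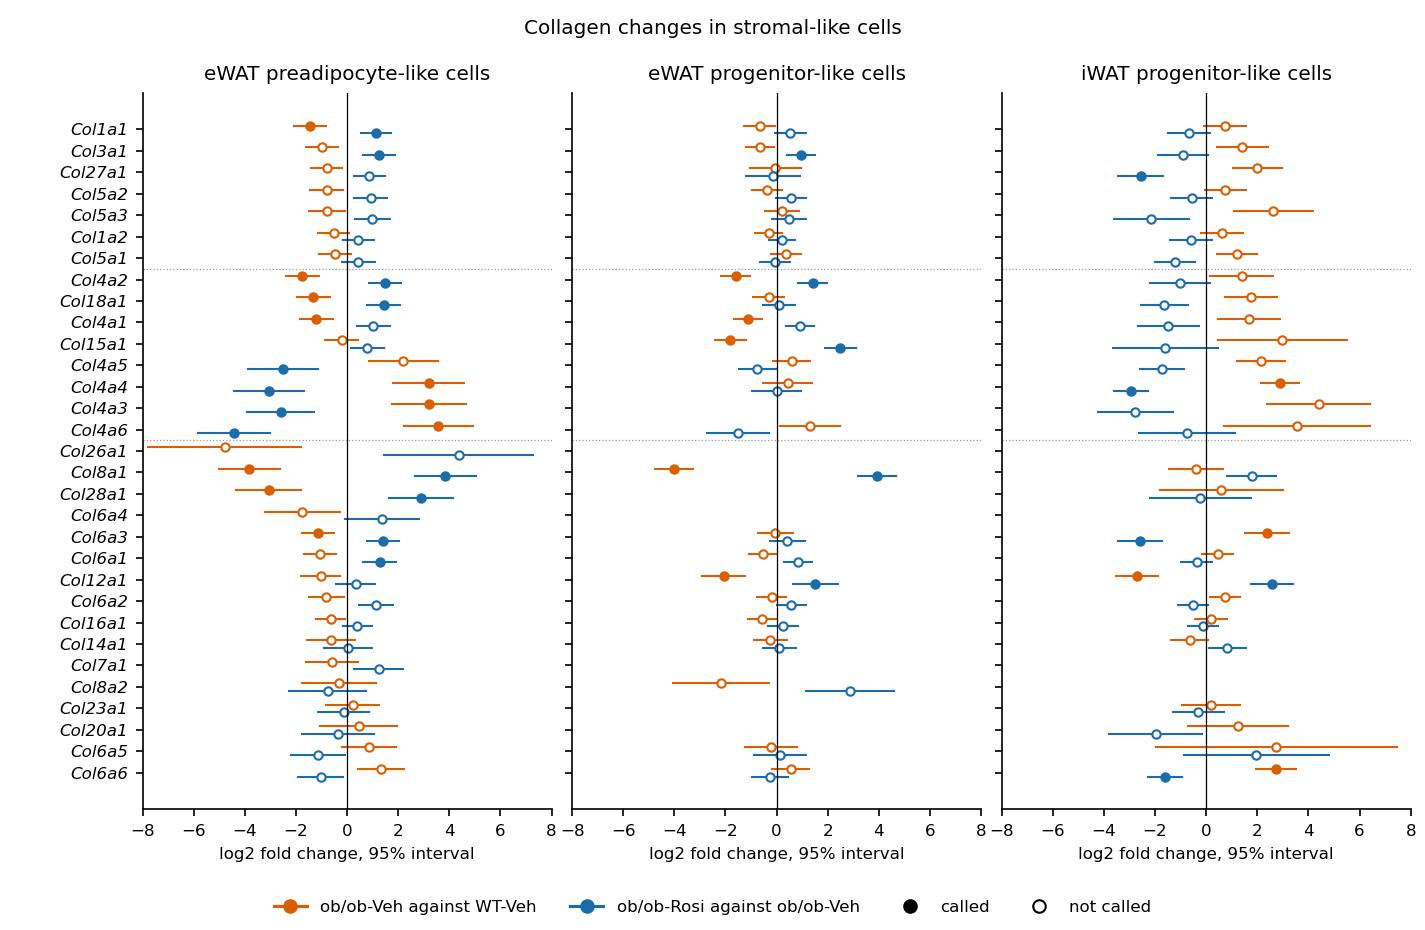
Log2 fold changes with 95% intervals of the collagens tested in eWAT preadipocyte-like cells, shown for those cells, eWAT progenitor-like and iWAT progenitor-like cells, for ob/ob-Veh against WT-Veh and for ob/ob-Rosi against ob/ob-Veh, which share the ob/ob-Veh libraries. Filled points passed the test. Col8a1 lies at -3.82 and -4.01 in the eWAT classes and -0.40 in iWAT, where its counts were low, and Col4a4 at 3.19 in eWAT preadipocyte-like and 2.87 in iWAT progenitor-like cells.

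The depots were compared in 1 fit over all 12 libraries for each class, averaged over the labels. The labels do not say whether the 2 depots came from the same mice, and the depots were clustered apart, so a class need not hold the same cells in both. A cluster led by Mfap4, Cpxm2, Cilp, Fxyd6 and Wisp2 was progenitor-like in eWAT and preadipocyte-like in iWAT (26.0% of WT-Veh cells of the class), and one with Agt and Sult1e1 among its leading genes was preadipocyte-like in eWAT and progenitor-like in iWAT. In progenitor-like cells 3 of 27 members were higher and 14 lower in iWAT than in eWAT (14.4% of all genes called), with a median of -0.95, and in preadipocyte-like cells 7 of 30 were higher and 5 lower (7.17%), with a median of 0.12. Col12a1 was higher in iWAT in both classes (2.48 ± 0.25 and 1.49 ± 0.25, adjusted p = 1.23e-05 and 0.00226), as were Col1a1 (0.91 ± 0.19 and 0.97 ± 0.22) and Col1a2 (0.77 ± 0.16 and 0.89 ± 0.19). Col8a1 was lower in both (-3.54 ± 0.22 and -2.99 ± 0.37, adjusted p = 1.97e-07 and 0.000329), and so was Col6a5, a chain of collagen VI found mainly in eWAT (42689 of its 43265 UMIs), by -5.74 ± 0.78 and -5.39 ± 0.74.

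The calls of the collagen IV chains between depots were not the same in the 2 classes, which were not tested against each other. In progenitor-like cells Col4a1 (-1.65 ± 0.26), Col4a2 (-1.79 ± 0.26), Col4a5 (-1.39 ± 0.24), Col4a6 (-3.78 ± 0.57), Col15a1 (-2.49 ± 0.47) and Col18a1 (-1.86 ± 0.22) were all lower in iWAT. In preadipocyte-like cells Col4a3 (2.42 ± 0.37) and Col4a4 (1.89 ± 0.33) were higher in iWAT and Col4a6 lower (-2.50 ± 0.62). Differences of Col6a6 (-1.61 ± 0.21 and -2.14 ± 0.29) had 1 sign in both classes. Among the other calls, Col6a1 (-0.54 ± 0.14) and Col6a2 (-0.69 ± 0.14) were lower in iWAT in progenitor-like cells. Col3a1 (0.87 ± 0.21) and Col6a3 (1.06 ± 0.19) were higher in iWAT in preadipocyte-like cells. The calls named here for Col12a1, Col8a1, Col6a5, Col6a6, Col4a3 and Col4a4, and in progenitor-like cells for Col4a1, Col4a2, Col4a5, Col15a1, Col18a1, Col1a1 and Col1a2, were made in every leave-one-out fit. In preadipocyte-like cells, Col1a1 was lost without eWAT ob/ob-Veh replicate 1 or 2, iWAT ob/ob-Veh replicate 1 or eWAT WT-Veh replicate 2, Col1a2 without eWAT ob/ob-Veh replicate 2, and Col4a6 in 7 of 12 such fits, and in progenitor-like cells Col4a6 was lost without eWAT ob/ob-Rosi replicate 1. With all stromal-like cells pooled (18.7% of all genes called), the differences of Col4a1 (-0.87 ± 0.28, adjusted p = 0.0532) and Col4a5 (-0.79 ± 0.32, adjusted p = 0.119) did not pass, and those of Col4a2 (-0.95 ± 0.27), Col15a1 (-1.38 ± 0.34) and Col18a1 (-0.75 ± 0.23) passed at a smaller size than in progenitor-like cells, while Col14a1, at 0.13 ± 0.19 and 0.03 ± 0.28 in the 2 classes, passed at 1.06 ± 0.22 (adjusted p = 0.0061). Without the 3 clusters of uncertain class there were 33 calls in both classes together against 29 (15.6% and 7.92% of all genes).

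The differences between labels also differed between depots for some collagens of progenitor-like cells. For ob/ob-Veh against WT-Veh the iWAT effect was called above the eWAT effect for 5 of 27 members (1.84% of all genes called), and 24 of the 27 differences were positive. Among the called, the largest was that of Col8a1 (3.56 ± 0.54, adjusted p = 0.00479), which fell in eWAT and differed by -0.40 ± 0.47 in iWAT. The iWAT effect of Col8a1 rests on low counts, with at most 18.0 CPM in any of the 12 iWAT stromal clusters. For ob/ob-Rosi against ob/ob-Veh the iWAT effect was called below the eWAT effect for 3 members (2.04%), with Col6a3 at -3.03 ± 0.53 (adjusted p = 0.00951). In preadipocyte-like cells the joint edgeR fit called 0 of 30 in either comparison (0.12% and 0.0798% of all genes), with 13 and 14 at an unadjusted p under 0.05. When all stromal-like cells were pooled, Col8a1 alone of 33 members was called for ob/ob-Veh against WT-Veh (3.25 ± 0.54, adjusted p = 0.0366, 0.581% of all genes) and 0 for ob/ob-Rosi against ob/ob-Veh (0.294%), where Col4a4 stood at 1.35 ± 0.77 against -2.94 ± 0.57 in progenitor-like cells. With collagens kept for clustering the progenitor-like cells gave 0 calls and at a resolution of 0.5 they gave 1, against 8 in all. These counts stand without the share of all genes called, and whether the loss is particular to collagens was not tested. Without the 2 clusters of iWAT with Mrc1 among their 10 leading genes they gave 11 (1.83% and 1.79% of all genes), in which Col8a1 was no longer called for ob/ob-Rosi against ob/ob-Veh nor Col6a6 for ob/ob-Veh against WT-Veh. Without the 3 clusters of uncertain class they gave 7 (1.38% and 1.49% of all genes), with the interactions of Col4a1, Col4a2 and Col6a3 for ob/ob-Veh (adjusted p = 0.117, 0.108 and 0.0777) and of Col8a1 for ob/ob-Rosi (adjusted p = 0.0706) lost and those of Col15a1 and Col18a1 gained. Of the leave-one-out fits, that without iWAT WT-Veh replicate 1 gave 19 calls, those without eWAT ob/ob-Veh replicate 1, eWAT ob/ob-Veh replicate 2, iWAT ob/ob-Veh replicate 2, eWAT WT-Veh replicate 1 and eWAT WT-Veh replicate 2 gave 2, 3, 2, 4 and 3, and Col8a1 for ob/ob-Veh and Col6a3 for ob/ob-Rosi were called in all 12.

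Endothelial-like cells carried mainly Col4a1 and Col4a2, the chains of the vessel basement membrane, and these were not called in any comparison. In eWAT, Col4a1 was at 879 and 843 CPM in WT-Veh, 930 and 841 in ob/ob-Veh and 1471 and 1042 in ob/ob-Rosi, and in iWAT at 1120 and 738, 1181 and 963, and 1432 and 1229. Col4a2 was at 669 and 629, 530 and 553, and 861 and 797 CPM in eWAT. Its iWAT values were 729 and 564, 635 and 557, and 893 and 880 CPM. The ob/ob-Rosi values were the highest of each depot for both genes, and the differences against ob/ob-Veh were 0.55 ± 0.25 and 0.66 ± 0.24 in eWAT and 0.54 ± 0.32 and 0.80 ± 0.29 in iWAT, none of which passed.

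In eWAT endothelial-like cells 6 of 18 members fell in ob/ob-Veh against WT-Veh (7.2% of all genes called): Col1a1 (161 and 104 to 33.5 and 28.9 CPM, -2.17 ± 0.31, adjusted p = 0.00123), Col18a1 (30.4 and 44.2 to 8.80 and 10.3, -2.05 ± 0.34, adjusted p = 0.00317), Col3a1 (-1.62), Col6a3 (-1.58), Col6a1 (-1.52) and Col1a2 (-1.29). The lymphoid cells of the same libraries held Col1a1 at 302 and 163 CPM in WT-Veh and 108 and 133 in ob/ob-Veh, above the endothelial-like values in each group, and the fibrillar values are therefore at background level. Col18a1, which was at 10.5 and 17.8 and at 6.0 and 10.4 CPM in the lymphoid cells, lay above that level in WT-Veh and about at it in ob/ob-Veh. Against ob/ob-Veh, 2 rose in ob/ob-Rosi (4.36%): Col18a1 (33.3 and 32.4 CPM, 1.81 ± 0.33, adjusted p = 0.00733) and Col15a1 (100 and 54.8 CPM, 1.65 ± 0.35, adjusted p = 0.017), the latter near the 94.9 and 47.9 CPM of the lymphoid cells. Against WT-Veh (0.414%), Col28a1 rose from 8.87 and 22.1 to 102 and 51.6 CPM (2.09 ± 0.41, adjusted p = 0.0465) and Col1a1 fell by 1.57 ± 0.29 (adjusted p = 0.0354). With mesothelial-like and mural-like cells counted in, 7 members were called in ob/ob-Veh against WT-Veh, and without likely doublets only that of Col18a1 remained. The Col1a1 and Col28a1 differences of ob/ob-Rosi from WT-Veh were lost in the same way. For ob/ob-Veh against WT-Veh there were 4 calls without ob/ob-Veh replicate 1, and 3 each without its replicate 2 or WT-Veh replicate 1. For ob/ob-Rosi against ob/ob-Veh there were 6 calls without ob/ob-Rosi replicate 1 and 1 without ob/ob-Veh replicate 1 or 2, and in ob/ob-Rosi against WT-Veh 0 without ob/ob-Rosi replicate 1 or WT-Veh replicate 1 and 1 without ob/ob-Rosi replicate 2 or WT-Veh replicate 2. The calls of Col18a1 were lost without WT-Veh replicate 2 or, in ob/ob-Rosi, without ob/ob-Veh replicate 2, that of Col15a1 without ob/ob-Veh replicate 1, and that of Col28a1 without ob/ob-Rosi replicate 1, WT-Veh replicate 1 or WT-Veh replicate 2.

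In iWAT endothelial-like cells Col28a1 was the chain that set ob/ob-Rosi apart. It was counted at 9.51 and 17.4 CPM in WT-Veh, 11.6 and 14.0 in ob/ob-Veh and 74.1 and 84.6 in ob/ob-Rosi, against 0 to 19.5 in the lymphoid cells. It rose by 2.47 ± 0.34 against WT-Veh (adjusted p = 0.00685) and by 2.77 ± 0.40 against ob/ob-Veh (adjusted p = 0.00604). The rise against WT-Veh was called in every leave-one-out fit and setting, and that against ob/ob-Veh was lost without ob/ob-Veh replicate 1 or 2. Col15a1 was at 18.4 and 4.17, 182 and 123, and 130 and 65.1 CPM, against 6.3 to 28.1 in the lymphoid cells, and rose by 3.71 ± 0.58 in ob/ob-Veh (adjusted p = 0.00562) and by 3.34 ± 0.55 in ob/ob-Rosi (adjusted p = 0.0139), both against WT-Veh. Col13a1, a collagen that spans the cell membrane, was at 0 and 2.09 CPM in WT-Veh, 58.1 and 46.4 in ob/ob-Veh and 1.86 and 0.917 in ob/ob-Rosi. It changed by 4.88 ± 0.66 (adjusted p = 0.00284) and -4.84 ± 0.60 (adjusted p = 0.0023) on 15 and 73 UMIs in the ob/ob-Veh libraries, and it was at 0 in all lymphoid cells.

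In all, 7 of 23 members rose in ob/ob-Veh against WT-Veh in these cells (4.86% of all genes called), 2 rose in ob/ob-Rosi against WT-Veh (1.43%), and 1 rose and 5 fell in ob/ob-Rosi against ob/ob-Veh (4.18%). Of the 7, 4 are stromal chains, namely Col1a2 (2.95 ± 0.34, adjusted p = 0.00141), Col1a1 (2.80 ± 0.52, adjusted p = 0.0136), Col14a1 (2.67 ± 0.41, adjusted p = 0.00511) and Col3a1 (1.58 ± 0.39, adjusted p = 0.0389). Stromal markers summed to 3682 to 3838 CPM in the endothelial-like cells labelled ob/ob-Veh, 781 to 783 in WT-Veh and 1143 to 1592 in ob/ob-Rosi, and lymphoid cells held Col1a2 at 1647 and 1151 CPM in ob/ob-Veh against 156 and 337 in WT-Veh, above the 794 and 445 and the 80.5 and 56.6 CPM of endothelial-like cells. The seventh, Col4a5, rose from 0 and 0.464 to 11.6 and 8.91 CPM (4.51 ± 1.15, adjusted p = 0.0468) and was at 24.5 and 19.5 in the lymphoid cells of the same ob/ob-Veh libraries. The ob/ob-Veh libraries held 99 and 596 of these cells. Without ob/ob-Veh replicate 1 or 2, 3 and 1 of the 7 rises were called and 0 of the 6 changes in ob/ob-Rosi against ob/ob-Veh, 14 rises were called without WT-Veh replicate 1, and 10 changes in ob/ob-Rosi without WT-Veh replicate 1 or 2 and 3 without ob/ob-Rosi replicate 2. For ob/ob-Rosi against WT-Veh 1 was called without ob/ob-Veh replicate 1 or 2 and 4 without WT-Veh replicate 1.

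**Figure D5:**
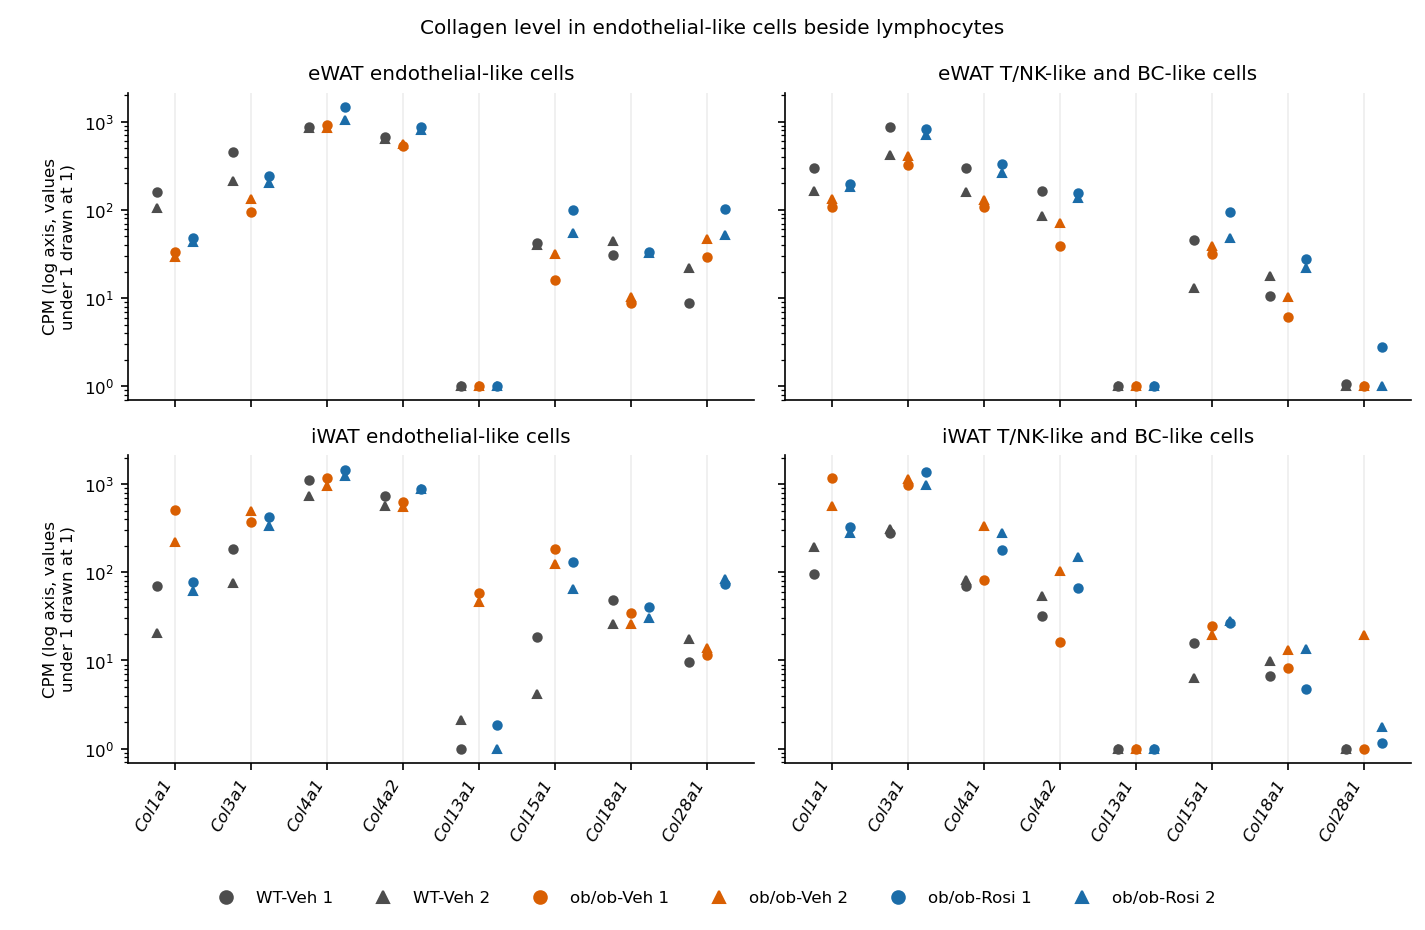
Level in each library (CPM, log axis, values under 1 drawn at 1) of collagens in endothelial-like cells beside the T/NK-like and BC-like cells of the same library, by depot and label. Col4a1 and Col4a2 lie above the lymphoid cells, Col1a1 does not (161 against 302 CPM in eWAT WT-Veh replicate 1), and Col28a1 in iWAT ob/ob-Rosi lies at 74.1 and 84.6 CPM.

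Mural-like cells, the pericytes and smooth muscle of vessels, had high levels of Col4a1 (1715 and 1293 CPM in eWAT WT-Veh, 1980 and 1273 in ob/ob-Veh, 2347 and 1518 in ob/ob-Rosi), and edgeR called 0 of 15 members in the comparisons of ob/ob-Veh with WT-Veh (1.84% of all genes, 1 member at an unadjusted p under 0.05), of ob/ob-Rosi with ob/ob-Veh (1.35%, 3) and of ob/ob-Rosi with WT-Veh (0.272%, 2). In iWAT only the last could be tested, since the ob/ob-Veh libraries held 1 and 8 mural-like cells, and 0 of 18 were called (0%, 6 at an unadjusted p under 0.05). Col28a1 was at 5.60 and 9.0 CPM in WT-Veh and 78.2 and 47.5 in ob/ob-Rosi there (2.93 ± 0.50, adjusted p = 0.187). In eWAT mesothelial-like cells 1 of 20 members was called in ob/ob-Veh against WT-Veh (3.71%), Col4a4, which rose from 9.70 and 13.7 to 47.6 and 69.6 CPM (2.23 ± 0.50, adjusted p = 0.038) and was at 31.6 and 7.14 in ob/ob-Rosi. That call was lost without any 1 of the ob/ob-Veh or WT-Veh libraries, and without likely doublets. Col4a6 in the same cells was at 73.8 and 66.7, 74.6 and 77.3, and 52.7 and 57.1 CPM, with fitted log2 differences of 0.03 ± 0.24 in ob/ob-Veh against WT-Veh and -0.35 ± 0.25 in ob/ob-Rosi against ob/ob-Veh. In these cells edgeR called 0 members in ob/ob-Rosi against ob/ob-Veh (1.31%, 4 at an unadjusted p under 0.05) and 0 against WT-Veh (0%, 1).

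Genes that make and handle collagen were read from the same fits. They were taken as lists of 20 genes of folding and modification in the endoplasmic reticulum, 13 of propeptide processing and crosslinking and 10 of receptors and uptake. In eWAT progenitor-like cells labelled ob/ob-Veh against WT-Veh, 1 of 17, 3 of 11 and 3 of 7 fell and none rose, beside 3.78% of all genes that fell, with medians of -0.14, 0.13 and -0.60. Adamts3, which cuts the amino end of procollagen, fell by 3.00 ± 0.81 (adjusted p = 0.0406), Lox, which crosslinks fibrils, by 1.69 ± 0.31 (adjusted p = 0.00362) and Plod2, a lysyl hydroxylase, by 1.16 ± 0.30 (adjusted p = 0.032). Of the receptors, Itga1, the α1 integrin, fell by 1.87 ± 0.48 (adjusted p = 0.0304) and Mrc2, which takes up collagen, by 1.73 ± 0.28 (adjusted p = 0.00156). In ob/ob-Rosi against ob/ob-Veh, Plod1 (1.45 ± 0.27, adjusted p = 0.00455), Pcolce, an enhancer of procollagen cleavage (1.88 ± 0.33, adjusted p = 0.00258), and Mrc2 (2.10 ± 0.28, adjusted p = 0.000347) rose and Itga2 fell (-3.34 ± 0.83, adjusted p = 0.0264), beside 5.33% of all genes called.

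In eWAT preadipocyte-like cells labelled ob/ob-Veh against WT-Veh, 0 of 19, 1 of 12 and 1 of 8 genes of the lists fell, beside 3.85% of all genes, and these were Pcolce (475 and 534 to 168 and 183 CPM, -1.55 ± 0.38, adjusted p = 0.0351) and Mrc2 (-1.54 ± 0.31, adjusted p = 0.0133). Called rises in ob/ob-Rosi against ob/ob-Veh were those of Plod1 (1.29 ± 0.28), Pcolce (2.03 ± 0.39), Bmp1, the protease of the carboxyl end (1.20 ± 0.27), Mrc2 (1.52 ± 0.31) and Lair1, an inhibitory collagen receptor of leukocytes (2.36 ± 0.52), beside 3.95% of all genes that rose. Macrophage markers summed to 127 to 174 CPM in ob/ob-Veh and to 776 to 956 in ob/ob-Rosi in these cells, and their part in the difference of Lair1 was not tested. In iWAT progenitor-like cells Adamts14 alone passed (-2.03 ± 0.40 in ob/ob-Rosi against ob/ob-Veh, adjusted p = 0.0379) of the 20, 12 and 9 genes tested, beside 1.09% and 2.47% of all genes called in the 2 comparisons, and in iWAT preadipocyte-like cells none of the 17, 11 and 6, beside 0.168% and 0.00882%. The medians of the 3 lists in ob/ob-Veh against WT-Veh were -0.16, -0.38 and -0.57 in eWAT preadipocyte-like cells and 0.34, 0.46 and 0.18 in iWAT progenitor-like cells, against -0.78 and 1.39 for the collagens. In ob/ob-Rosi against WT-Veh no gene of the lists passed in progenitor-like or preadipocyte-like cells of either depot.

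In eWAT endothelial-like cells labelled ob/ob-Veh against WT-Veh, 1 of 17 genes of the first list rose, 1 of 8 of the second fell and 1 of 5 of the third rose (7.2% of all genes called), with medians of 0.08, -0.51 and -0.21. These were Serpinh1, a collagen chaperone (1.07 ± 0.25, adjusted p = 0.0247), Lox (-1.75 ± 0.44, adjusted p = 0.0322) and Itga1 (1.71 ± 0.28, adjusted p = 0.00306). In ob/ob-Rosi against ob/ob-Veh, Pcolce (1.43 ± 0.36, adjusted p = 0.0385) and Lair1 (2.53 ± 0.57, adjusted p = 0.0228) rose (4.36% of all genes called), and in ob/ob-Rosi against WT-Veh Lox fell (-2.42 ± 0.45, adjusted p = 0.0354, 0.414%). Macrophage markers summed to 2791 to 3280 CPM in WT-Veh, 834 to 1160 in ob/ob-Veh and 3262 to 3428 in ob/ob-Rosi in these cells, and their part in the differences was not tested. In iWAT endothelial-like cells 2 of 19, 2 of 10 and 1 of 6 genes of the lists rose in ob/ob-Veh against WT-Veh and none fell (4.86% of all genes called), with medians of 0.06, 1.09 and 0.66: Colgalt2, a collagen galactosyltransferase (4.37 ± 0.76), Serpinh1 (1.56 ± 0.33), Loxl1, a crosslinking enzyme (3.23 ± 0.41), Pcolce2 (2.75 ± 0.51) and Itga1 (1.27 ± 0.30). Stromal markers summed to 3682 to 3838 CPM in these cells of ob/ob-Veh and 781 to 783 in those of WT-Veh, and their part in the rises was not tested. In ob/ob-Rosi against ob/ob-Veh Ppib rose (1.78 ± 0.38) and Loxl1 fell (-2.17 ± 0.37), beside 4.18% of all genes called, and in ob/ob-Rosi against WT-Veh none passed (1.43%).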

How the data were processed

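The authors ran Cell Ranger 3.0.2 against mm10 on 10x Genomics 3′ reads, and the deposited files are UMI count matrices of genes by cells, 1 per library. Cells with 700 to 22000 UMIs, 200 to 6000 genes and under 25% mitochondrial UMIs were kept. Each depot was clustered with scanpy 1.11.5 (2000 variable genes without collagens, 25 components, Leiden resolution 1, stromal-like cells again at 0.6), and clusters were named from at least 3 markers, by a rule adjusted after the clusters and before the groups were seen. Doublets were marked with Scrublet (the top 6% by score where it called under 0.5% of cells) and removed only as an alternative. Counts were summed per library and class with at least 20 cells and tested with edgeR 4.0.16 (TMM, filterByExpr, quasi-likelihood), checked on simulated data, in 1 fit per depot and class with 3 residual degrees of freedom, and in a joint fit of both depots with 6.

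The members and lists were chosen with earlier results of these data known. A set of members was named for at least 1 comparison in eWAT progenitor-like, eWAT preadipocyte-like and iWAT progenitor-like cells. It held Col1a1, Col1a2, Col3a1, Col5a1 to Col5a3, Col4a1, Col4a2, Col15a1, Col18a1, Col6a1 to Col6a3, Col8a1, Col12a1, Col14a1 and Col16a1. Only some of the set were named in iWAT preadipocyte-like cells and between depots. Called members of at least 10 CPM in 1 label were named as well, up to 6 per direction. From each list of genes that handle collagen, the 2 most changed called genes per direction were named. In vascular and mesothelial-like classes the called members and Col4a1, Col4a2, Col15a1 and Col18a1 were eligible. Chains α3 to α6 of collagen IV, Col6a5 and Col6a6 outside the called ones, and Col28a1 in mural-like cells, were added after their values were seen. The p-values measure the spread between libraries labelled biological replicates, and an exact permutation test of 2 against 2 cannot go below 0.333. The median over all genes lay between -0.06 and 0.03 (log2) in the fits within a depot, and between -0.27 and 0.22 when their counts were scaled by library size alone. In the joint fits of both depots it lay between -0.10 and 0.04. The alternatives tried are given with their effects in the closing section.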

Additional observations from a re-analysis of the deposited data

Results flagged for a closer look

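In progenitor-like cells, 8 effects on collagens differed between the depots by the test of the interaction (edgeR, joint fit of 12 libraries). For ob/ob-Veh against WT-Veh, the iWAT effect exceeded the eWAT effect by 3.56 ± 0.54 (log2, SE) for Col8a1 (adjusted p = 0.00479), 2.96 ± 0.64 for Col4a2 (adjusted p = 0.0328), 2.74 ± 0.64 for Col4a1 (adjusted p = 0.0438), 2.40 ± 0.53 for Col6a3 (adjusted p = 0.0345) and 2.19 ± 0.52 for Col6a6 (adjusted p = 0.0489). For ob/ob-Rosi against ob/ob-Veh the difference of effects was -3.03 ± 0.53 for Col6a3 (adjusted p = 0.00951), -2.94 ± 0.57 for Col4a4 (adjusted p = 0.0166) and -2.16 ± 0.50 for Col8a1 (adjusted p = 0.0421). The effects of ob/ob-Veh against WT-Veh were -4.01 in eWAT and -0.40 in iWAT for Col8a1, -1.60 and 1.39 for Col4a2, and -0.05 and 2.37 for Col6a3. The iWAT effect of Col8a1 rests on low counts, with at most 18.0 CPM in any of the 12 iWAT stromal clusters. Both kinds of difference use the ob/ob-Veh libraries. All 8 were lost with collagens kept for clustering, and whether that loss is particular to collagens was not tested. Groups of 2 libraries were too small for a test of 1 library against the rest of its group. Without iWAT WT-Veh replicate 1, most of whose cells lay in unnamed clusters, 19 were called.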

How the results depend on the processing

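Counts of called collagens cover 3 comparisons, first ob/ob-Veh against WT-Veh, then ob/ob-Rosi against ob/ob-Veh, then ob/ob-Rosi against WT-Veh. As reported they were 5, 5 and 0 in eWAT progenitor-like, 10, 12 and 0 in eWAT preadipocyte-like, 7, 2 and 2 in eWAT vascular and mesothelial-like, 4, 5 and 0 in iWAT progenitor-like, 0, 0 and 0 in iWAT preadipocyte-like and 7, 6 and 2 in iWAT vascular cells, with 29 between depots and 8 interactions. Leaving out each library in turn gave 3 to 5, 2 to 5 and 0 to 0 calls in eWAT progenitor-like, 4 to 18, 3 to 17 and 0 to 0 in eWAT preadipocyte-like, 3 to 9, 1 to 6 and 0 to 3 in eWAT vascular and mesothelial-like, 0 to 14, 0 to 13 and 0 to 0 in iWAT progenitor-like, 0 to 4, 0 to 2 and 0 to 2 in iWAT preadipocyte-like and 1 to 14, 0 to 10 and 1 to 4 in iWAT vascular cells, 22 to 29 between depots and 2 to 19 interactions. In these fits the spread of a lone library was taken from the other groups. The counts in this section stand without the share of all genes called under the same setting. Whether a gain or loss of calls is particular to collagens was not tested.

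Without the filter on low counts the count became 8 for eWAT progenitor-like cells in ob/ob-Veh, 15, 10 and 6 for eWAT vascular and mesothelial-like, 16, 15 and 1 for iWAT progenitor-like, 6, 3 and 4 for iWAT preadipocyte-like and 11 and 5 for iWAT vascular cells in the comparisons with WT-Veh, and 35 for interactions. With DESeq2 it became 11 and 11 in iWAT progenitor-like, 3 and 1 in iWAT preadipocyte-like, 4 in iWAT vascular cells (ob/ob-Rosi against WT-Veh) and 29 for interactions. Scaling by library size alone gave 1 in eWAT vascular and mesothelial-like cells (ob/ob-Rosi against WT-Veh) and 1 in iWAT preadipocyte-like cells (ob/ob-Veh). With collagens kept for clustering, eWAT progenitor-like cells had 2 calls in ob/ob-Rosi against ob/ob-Veh, eWAT vascular and mesothelial-like cells 4 and, against WT-Veh, 1, iWAT progenitor-like cells 2, iWAT preadipocyte-like cells 1 and iWAT vascular cells 4 (ob/ob-Rosi against WT-Veh). A Leiden resolution of 0.5 gave 18 in eWAT preadipocyte-like (ob/ob-Veh), 3, 1 and 0 in eWAT vascular and mesothelial-like, 2 in iWAT progenitor-like (ob/ob-Veh), 1 in iWAT preadipocyte-like (ob/ob-Veh) and 2, 2 and 1 in iWAT vascular cells. Pooling all stromal-like cells, which changes the cells and so the sums, gave 15 and 18 in eWAT and 2 and 0 in iWAT. Removing doublets gave 1, 1 and 0 in eWAT vascular and mesothelial-like cells, and subtracting free RNA 5 and 1 there (ob/ob-Rosi, against each vehicle group) and 3 and 3 in iWAT vascular cells. Thinning cells to 700 UMIs gave mean collagen shares in eWAT preadipocyte-like cells of 3.61% in WT-Veh and 3.70% in ob/ob-Rosi. For interactions, keeping collagens for clustering (0 calls) and the resolution of 0.5 (1 call) were chosen after seeing the data, as were the Tagln-led cluster kept in eWAT and the clusters with Mrc1 among their 10 leading genes left out of iWAT progenitor-like cells, which gave 5, 7 and 0 calls there and 11 interactions. Leaving out the 3 stromal clusters whose 2 class levels differed by under 0.2, also chosen after seeing the data, gave 11, 13 and 0 in eWAT preadipocyte-like, 5, 6 and 0 in iWAT progenitor-like and 1, 0 and 0 in iWAT preadipocyte-like cells, 33 between depots and 7 interactions.

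Same-numbered libraries of 2 labels had deviations correlated between 0.11 and 0.33 in eWAT and between -0.02 and 0.55 in iWAT, and the labels tie a number to no shared animal, litter or day, so with 2 numbers the libraries were not taken as pairs. With the replicate block, calls in ob/ob-Rosi against ob/ob-Veh became 8 in eWAT progenitor-like cells. In the order above, calls became 14, 10 and 4 in eWAT vascular and mesothelial-like, 8 and 11 in iWAT progenitor-like, 6, 3 and 2 in iWAT preadipocyte-like and 13 and 12 in iWAT vascular cells, and 26 interactions.

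Of the values of single collagens under all alternatives, 6714 kept their side of the threshold and, where called, their direction, 231 passed it newly, 310 lost it and 12 reversed. Values that were not called could change sign within the 6714: with all stromal-like cells of iWAT pooled, those of Col4a1, Col4a2, Col15a1 and Col18a1 in ob/ob-Veh against WT-Veh turned from 1.66, 1.39, 2.97 and 1.76 in progenitor-like cells to -0.86, -1.23, -0.92 and -1.26. The interactions refitted on pooled cells are not among these counts. In eWAT progenitor-like cells (ob/ob-Veh against WT-Veh) Col15a1 turned to 0.20 with collagens kept for clustering and 0.61 at resolution 0.5, and Col4a1 to 0.036 and 0.17. The interactions of Col4a1 turned to -0.59 and -0.54, and those of Col4a2 to -0.74 and -0.84, under the same settings. With all stromal-like cells of iWAT pooled, Col27a1 turned to 0.28 and Col6a3 to 0.22 in ob/ob-Rosi against ob/ob-Veh. With free RNA subtracted, Col4a1 in mesothelial-like cells, which was not called, turned to 9.31 and -5.26. Apart from the settings that change the cells or the genes tested, the cause was not tested. Too few cells kept iWAT mural-like cells labelled ob/ob-Veh and lymphatic endothelial-like cells out of the comparisons.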

Other observations

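No cells of iWAT were named lymphatic endothelial-like, but 14179 iWAT cells were left unnamed, so their absence from that depot was not shown. In eWAT 132 cells had this name, and they entered no comparison. Col23a1, a collagen that spans the cell membrane, had its highest median level in these cells, at 123 CPM, on 35 and 38 UMIs in the ob/ob-Veh libraries and 12 in WT-Veh replicate 1, and between 33.3% and 48.6% of these cells held at least 1 UMI of it. In all 12 libraries Col23a1 had 885 UMIs.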
